A study of Mus musculus with 16 samples.

Results

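H3K4me3 regions that were called in Myc-ESCs, were not called in LIF-ESCs and lay away from Suz12 are described here, at start sites and distal to them. The regions were chosen by the H3K4me3 and Suz12 peak calls themselves. Joining the H3K4me3 peaks that overlapped, over both lists, gave 36255 regions. A region was kept when it overlapped a Myc-ESC H3K4me3 peak and no LIF-ESC H3K4me3 peak and had no Suz12 peak of either culture within 1000 bp. This left 3838 Myc-only regions, or members, which are 12.4% of the 31019 regions without Suz12, a share that the rule itself fixes. Of the members, 481 lay within 2500 bp of the start site of a curated RefSeq transcript and 3357 were distal. The other regions without Suz12 were 6079 LIF-only regions and 21102 shared regions, which serve for comparison. Without the condition on Suz12 there were 4312 Myc-only regions.

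The cells were R1 mouse embryonic stem cells that express MycER, a point-mutant Myc protein fused to the hormone-binding part of the estrogen receptor, which 4-hydroxytamoxifen (OHT) switches on. LIF-ESCs received LIF at 100 units/ml, and Myc-ESCs received 50 nM OHT in place of LIF. Both were grown without feeders in serum and vitamin C. The study's methods give these cells as clone D1, so the cultures stand for 1 clone. ChIP-seq of H3K4me3, H3K27me3 and Suz12 and of input DNA came from 16 libraries, 2 per culture and antibody. The deposited data are 6 peak lists, 1 per culture and antibody, with a score for each peak that is minus 10 times log10 of its p-value. No list exists per library and no read counts were used, so the depth is unknown, the spread between replicates cannot be measured, and no p-value is given. Intervals below are 95% Wilson intervals for shares and Newcombe intervals for differences of shares. They cover counting error over regions only, and regions are not replicates of a culture. Start sites of all 10 ESC marker genes checked, among them Pou5f1, Sox2 and Nanog, held H3K4me3 in both cultures, and none of these genes had a member.

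H3K4me3 is a histone mark found at the start sites of active and poised genes, above all at CpG islands, and in weaker form at active enhancers. Suz12 is a subunit of the Polycomb repressive complex that places H3K27me3, and start sites with both H3K4me3 and H3K27me3 are called bivalent. Myc binds DNA with its partner Max at E-boxes, and LIF acts on ESCs through the kinase Jak and the transcription factor Stat3. Members of the set described here carry H3K4me3 in Myc-ESCs away from every called Suz12 peak.

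The sequences below show what the members look like. Each promoter runs from 250 bases before to 50 bases after the start site (RefSeq, GRCm38.p6) and is written along the gene's strand, with CG dinucleotides in capitals. Trim12c and Prlr are among the newly marked genes with the highest scores. Krt7 and Mael were added, after their values were seen, as members with denser CG. The promoter of Trim12c (chr7:104353300-104353599, minus strand) had 3 CG, that of Prlr (chr15:10176988-10177287, plus strand) 8, that of Krt7 (chr15:101412153-101412452, plus strand) 21, and that of Mael (chr1:166238695-166238994, minus strand) 24. The last line is the centre of the member at Sall2 (chr14:52328532-52328831, plus strand), with 3 CG.
Trim12c: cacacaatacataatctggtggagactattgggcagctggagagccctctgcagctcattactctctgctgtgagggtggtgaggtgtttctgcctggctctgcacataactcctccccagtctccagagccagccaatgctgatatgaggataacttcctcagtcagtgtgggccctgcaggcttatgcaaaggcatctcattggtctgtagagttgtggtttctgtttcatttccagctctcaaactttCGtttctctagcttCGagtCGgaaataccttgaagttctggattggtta
Prlr: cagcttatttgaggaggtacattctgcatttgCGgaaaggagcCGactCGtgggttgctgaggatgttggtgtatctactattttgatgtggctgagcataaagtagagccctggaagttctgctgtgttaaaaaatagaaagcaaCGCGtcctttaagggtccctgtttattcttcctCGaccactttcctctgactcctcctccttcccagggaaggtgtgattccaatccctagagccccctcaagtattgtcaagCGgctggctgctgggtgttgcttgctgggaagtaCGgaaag
Krt7: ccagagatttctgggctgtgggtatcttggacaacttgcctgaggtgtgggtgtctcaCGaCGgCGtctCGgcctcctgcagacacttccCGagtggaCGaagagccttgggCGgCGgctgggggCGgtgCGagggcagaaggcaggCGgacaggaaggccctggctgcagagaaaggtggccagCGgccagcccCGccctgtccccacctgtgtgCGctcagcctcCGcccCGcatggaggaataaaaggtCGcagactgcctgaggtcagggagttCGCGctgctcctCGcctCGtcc
Mael: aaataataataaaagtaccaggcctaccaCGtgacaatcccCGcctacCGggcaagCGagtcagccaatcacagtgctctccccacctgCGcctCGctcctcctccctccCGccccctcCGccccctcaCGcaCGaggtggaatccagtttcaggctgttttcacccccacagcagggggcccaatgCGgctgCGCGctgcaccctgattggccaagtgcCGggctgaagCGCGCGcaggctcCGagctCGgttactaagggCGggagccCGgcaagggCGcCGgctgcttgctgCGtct
Sall2: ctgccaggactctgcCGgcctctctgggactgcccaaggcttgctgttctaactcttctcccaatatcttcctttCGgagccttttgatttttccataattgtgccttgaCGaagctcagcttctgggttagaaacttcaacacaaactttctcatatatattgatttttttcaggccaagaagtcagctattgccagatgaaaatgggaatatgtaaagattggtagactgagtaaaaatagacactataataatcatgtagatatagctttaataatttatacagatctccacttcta

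Most members were weak and short peaks. The Myc-ESC score, which ranks peaks within the list and which the rule used, had a median of 86.7 in start-site members (quartiles 62.1 and 137.2) and of 75.4 in distal members (60.2 and 103.4). Shared regions had medians of 1887.2 at start sites and 200.2 at distal places. The median length was 1946 bp at start sites and 1833 bp at distal places, against 3702 and 2355 bp in shared regions. Of the members, 165 reached a score of 200, 9 reached 500 and 4 reached 1000. A score of at least 100 was held by 193 of the 481 start-site members and by 913 of the 3357 distal ones. The members were therefore close to the lowest score that the caller reports, 50, and a region just under that limit in LIF-ESCs would have been counted as absent there.

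**Figure D1:**
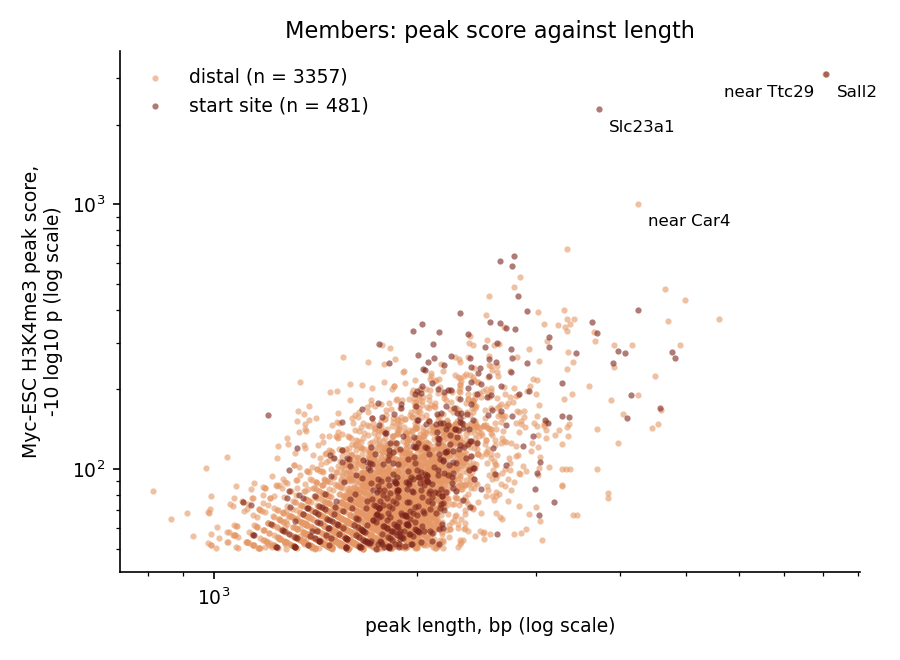
Myc-ESC H3K4me3 peak score (minus 10 log10 p, log scale) against peak length in bp (log scale), with 1 point per member, 481 at start sites in dark red and 3357 distal in orange. Most points lie under a score of 200, and the members at Sall2, Slc23a1, near Ttc29 and near Car4 stand above 1000.

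The limits of the rule were not sharp gaps in the data. The Myc-only regions that were left out with the longest distance to Suz12 lay 770, 839 and 939 bp from a peak, and the closest members lay at 1002, 1063 and 1081 bp. Start-site members farthest from a start site lay at 2467, 2474 and 2491 bp, and the nearest distal members at 2514, 2520 and 2527 bp. The nearest LIF-ESC H3K4me3 peak was a median of 14165 bp away from start-site members and 28171 bp from distal members. It was within 1000 bp of 47 start-site members (9.77%) and of 82 distal members (2.44%), so most members did not adjoin a LIF-ESC peak.

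Members at start sites touched 518 genes. Of these, 385 had no LIF-ESC H3K4me3 peak within 2500 bp of any start site and are called newly marked, which is 3.89% of the 9905 genes without the mark in LIF-ESCs. They were 308 protein-coding genes, 45 lncRNA genes, 28 miRNA genes and a few other non-coding genes. The other 133 genes had a LIF-ESC peak too, 92 of them at the same start site and 41 only at another start site. For comparison, 16275 of 26180 genes were marked in LIF-ESCs and 16572 in the Myc-ESC list, and 614 genes were newly marked when regions with Suz12 were included. The member itself covered the start site in 325 of 481 cases (67.6%). Members whose nearest gene was newly marked lay a median of 20441 bp from a LIF-ESC peak, and the other 119 start-site members 1371 bp.

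The 15 newly marked genes with the highest scores ranged from 2291 down to 315.5. Slc23a1, a sodium-dependent vitamin C transporter, had a member of 3717 bp with a score of 2291 that began 123 bp upstream of its start site, and 89.7% of the member's central 300 bp was repeat sequence. Trim12c, a gene of the tripartite motif family, followed at 611.2 with a member of 2657 bp (chr7:104351930-104354586) that lay 106107 bp from the nearest LIF-ESC peak. The lncRNA gene 3930402G23Rik had 398.6, with the member 1298 bp from the start site. These 3 were the highest of the newly marked genes, and the closest LIF-ESC peak to any of them was 3437 bp away, at Slc23a1.

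The 15 genes included 2 of the testis and 2 of sensory cells. Prss39, a serine protease gene of the testis, scored 388.8, and Actl7b, a testis actin-like gene whose member also reached Actl7a, scored 360.8. Slc26a5 encodes prestin, the motor protein of outer hair cells, and scored 358.6. Omp, the olfactory marker protein gene of mature olfactory neurons, scored 354.2 (chr7:98144291-98146326). All 4 members overlapped the start site.

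Receptor and enzyme genes were in the same range of scores. Prlr, the prolactin receptor gene, which signals through Jak2 and Stat5, had a member with a score of 356.8 (chr15:10176598-10179253), 69438 bp from the nearest LIF-ESC peak. Tacr3, the neurokinin B receptor gene, scored 324.7, and Gucy1a1, which encodes a subunit of soluble guanylate cyclase, scored 333.0. Atp2c2, a calcium pump gene of the secretory pathway, scored 337.9, and Capn3, the muscle calpain gene, 326.6. Fam135b scored 328.8 and Rbbp8nl 315.5. Rpl37rt, a retrotransposed copy of a ribosomal protein gene, scored 342.4, but its member lay 141 bp outside the start site with its centre in an exon of Acads, and the reads of such a copy can be hard to tell from those of its parent.

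At other high-scoring members the nearest gene already had H3K4me3 in LIF-ESCs, and 4 of these are described. Sall2, a zinc finger transcription factor gene, had the highest score of all start-site members, 3100, over 8083 bp (chr14:52324641-52332723). That score equals the upper quartile of shared start-site regions. The member covered the upstream start site of Sall2 at position 52328670, and the nearest LIF-ESC peak was 6826 bp away. Dtna, which encodes dystrobrevin alpha, scored 638.3, and Arhgap32, a GTPase-activating protein gene, 452.9, both over a start site. Pak3, a kinase gene of neurons on the X chromosome, scored 394.6 with its member over a start site and the nearest LIF-ESC peak 122262 bp away. The mark therefore lay at another start site of the same gene in all 4 of these genes.

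Gene lists were read against the 3.89% of all LIF-unmarked genes that were newly marked. The 6985 LIF-unmarked genes that matched the RefSeq promoter table were each classed by their highest promoter ratio of observed to expected CG. The share newly marked among them rose from 1.63% at a ratio under 0.2 to 16.6% above 0.6. The lists were not matched for this ratio, and its part in their shares was not tested. Of 63 genes of the germ line and meiosis, 33 were marked in LIF-ESCs and 6 of the other 30 (20.0%) were newly marked. They were Spo11 (score 142.2), which makes the DNA breaks of meiosis, Sohlh2 (88.1), a germ cell transcription factor, Mael (78.7) and Tdrd1 (74.5), both of the piRNA pathway. Mov10l1 (61.4), a piRNA helicase gene, and Nobox (53.3), an oocyte homeobox gene, were named after their values were seen. Scores of this list were low, and the member of Spo11 lay 1432 bp from the start site, while those of Mael, Tdrd1, Sohlh2 and Mov10l1 overlapped it. The nearest LIF-ESC peak to the member at Tdrd1 was 1984 bp away.

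Of 66 interferon and innate immune genes, 5 of the 34 unmarked in LIF-ESCs (14.7%) were newly marked. Gbp4, a guanylate-binding protein gene, had the highest score of them, 252.7. Igtp, an immunity-related GTPase gene, scored 155.7 and Dhx58, a regulator of RNA sensing, 106.4. Irf7, a transcription factor of the interferon response, scored 163.5, but the centre of its member lay in an exon of Cdhr5 and the member ended 1664 bp from the start site of Irf7. Oasl2 had 57.0, the lowest score of the 5.

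In the study's PI3K-AKT list, 9 of 82 unmarked genes (11.0%) were newly marked. They included Prlr (356.8), the growth factor gene Pdgfd (196.8), the thrombospondin gene Thbs2 (117.2) and the collagen gene Col6a2 (99.5). The JAK-STAT list had 4 of 70 (5.71%), namely Prlr, the cytokine gene Il13 (103.7), the cytokine receptor gene Il10ra (94.3) and the leptin gene Lep (54.8). Prlr and Lep each stand in more than 1 list, so the lists are not independent. The MAPK list had 5 of 87 (5.75%), led by the cytokine gene Il18 (253.5), whose member it shares with Bco2, with C1qtnf2 (75.6), C1qtnf3 (55.0) and Lep after it. With regions near Suz12 included, the counts were 15 in the PI3K-AKT, 5 in the JAK-STAT and 16 in the MAPK list. The germline and interferon lists then held 7 each. Socs1, the feedback inhibitor of Jak-Stat signalling, had a member with a score of 56.1. Its start site was marked in LIF-ESCs, however, and the nearest LIF-ESC peak was 437 bp away.

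The remaining lists held few genes newly marked at a member. In the study's Wnt list it was 1 of 30, Dkk3 (104.4), a Dickkopf family gene. In the TGF-BMP list it was 1 of 15, Fstl3 (67.5), an activin-binding protein gene, and in the pluripotency list 1 of 3, Spi1 (153.2), whose member lay 2474 bp from the start site, near the limit of the window. Among 65 imprinted genes it was 1 of 11 unmarked genes, H19 (150.3), whose member also covered Mir675 and lay 1092 bp from Suz12, near the limit of the rule. Among 47 genes of extraembryonic endoderm and trophoblast it was 1 of 18, Krt7 (206.1), a keratin gene of simple epithelia. None of the 44 unmarked genes of the preimplantation list, the 13 of the Hippo list or the 6 of the mTOR list was newly marked. With regions near Suz12 included, the counts were 8 in the Wnt, 3 in the TGF-BMP, 4 in the imprinted and 3 in the Hippo list. The preimplantation and mTOR lists stayed at 0, and the pluripotency and extraembryonic lists at 1. Over all genes it was then 614 of 9905. All 58 growth genes that Myc is known to activate and all 36 LIF-Stat3 responsive genes were already marked in LIF-ESCs, so they could not gain the mark.

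**Figure D2:**
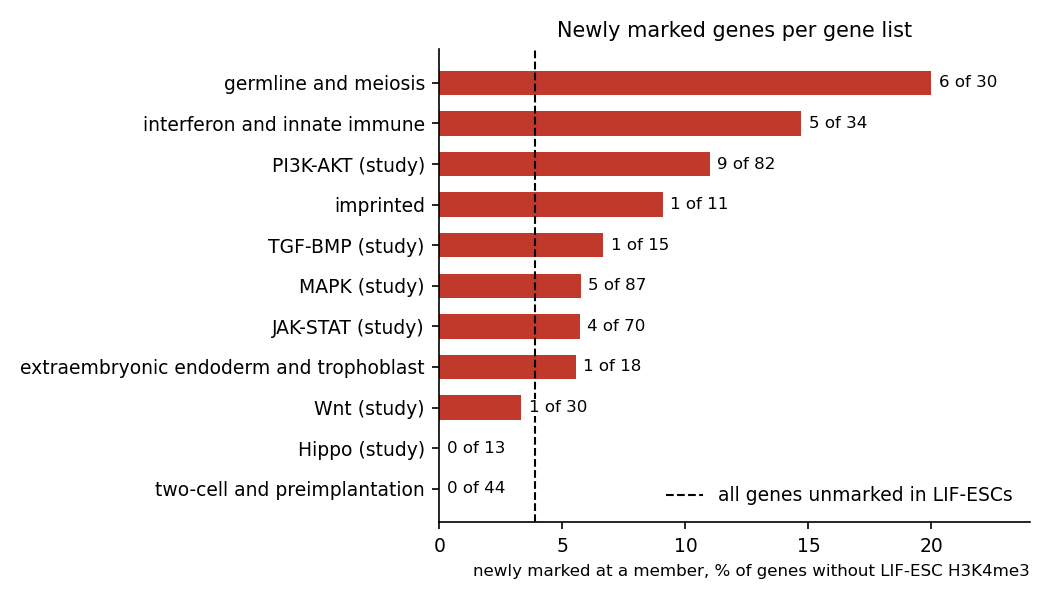
Share of genes without LIF-ESC H3K4me3 that were newly marked at a member, in % on the x axis, for each gene list with at least 10 such genes. Bars carry the number newly marked of the number unmarked in LIF-ESCs, and the dashed line is the 3.89% of all 9905 genes. The germline list (6 of 30), the interferon list (5 of 34) and the PI3K-AKT list (9 of 82) lie farthest to the right, while the Hippo and preimplantation lists are at 0.

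Large receptor families stood low. Of 1110 unmarked olfactory receptor genes 11 were newly marked (0.991%), and of 355 vomeronasal receptor genes 1. The 75 unmarked cytochrome P450 genes and the 74 defensin genes had none. Without olfactory and vomeronasal receptors, 373 of 8440 unmarked genes (4.42%) were newly marked, so the families lower the background only slightly. Genes named as keratins or keratin-associated proteins had 5 of 102 and solute carrier genes 7 of 112.

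Of the newly marked genes, 28 encode miRNAs. Counted by gene name, which takes in Mir205hg, 29 of 831 unmarked microRNA genes (3.49%) were newly marked. This is close to the 3.89% of all unmarked genes. The clusters among the 28 are shown here since their mature sequences are short and fully defined. They were named after their values were seen. A member of 2770 bp with a score of 158.6 (chr3:127544083-127546852) covered Mir302b, Mir302c, Mir302a, Mir302d and Mir367, a cluster that is characteristic of pluripotent cells. The nearest LIF-ESC peak was 4444 bp from this member, outside the 2500 bp window of these start sites, so the cluster was newly marked only within that window. Of its mature miRNAs, 9 follow, 5′ to 3′ from RefSeq, with the seed (bases 2 to 8) in capitals.
miR-302b-3p: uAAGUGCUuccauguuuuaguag
miR-302d-3p: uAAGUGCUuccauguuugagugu
miR-302c-3p: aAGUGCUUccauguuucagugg
miR-302b-5p: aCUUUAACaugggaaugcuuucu
miR-302c-5p: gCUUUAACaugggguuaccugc
miR-302d-5p: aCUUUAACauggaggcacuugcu
miR-302a-5p: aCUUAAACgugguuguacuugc
miR-367-3p: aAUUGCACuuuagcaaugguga
miR-367-5p: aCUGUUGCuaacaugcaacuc

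The 5p arms of miR-302b, miR-302c and miR-302d share the seed CUUUAAC, and miR-302b-3p and miR-302d-3p share AAGUGCU, whereas the table gives miR-302c-3p the seed AGUGCUU, from a start that is shifted by a base. In all, 4 seeds were shared by at least 2 of the 28 genes. The second cluster lay on the X chromosome, where a member of 4146 bp with a score of 190.2 (chrX:53049150-53053295) reached Mir542, Mir450-1, Mir450-2 and Mir450b, with the nearest LIF-ESC peak 2543 bp away. The same member lay at Mir322, Mir351 and Mir503, which had a LIF-ESC peak at a start site and were not newly marked. Its mature miR-450b-3p and miR-450a-1-3p share a seed.
miR-450b-3p: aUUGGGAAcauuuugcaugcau
miR-450a-1-3p: aUUGGGAAcauuuugcauaaau
miR-542-3p: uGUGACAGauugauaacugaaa

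Another member covered Mir142 and its antisense gene Mir142b, with a score of 64.2 over 1805 bp. Mir142 is known from blood cells. Peak calls carry no strand, so the mark cannot be assigned to either gene of this pair.

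Newly marked genes had promoters of intermediate CpG density, between genes marked in LIF-ESCs and genes unmarked in both cultures. The rule left regions near Suz12 out of the newly marked genes, while the genes marked in LIF-ESCs were not limited in this way. CpG density is given as the ratio of observed to expected CG in the 300-base promoter. The ratio had a median of 0.318 over the 340 promoters of the 279 newly marked genes that matched the RefSeq table, against 0.736 for genes marked in LIF-ESCs and 0.176 for genes unmarked in both cultures. A promoter was CpG-rich, with over 50% GC and a ratio over 0.6, at 10.6% of newly marked promoters, 63.4% of LIF-marked ones and 1.27% of unmarked ones. Among genes unmarked in LIF-ESCs, the share newly marked was 1.63% (61 of 3748, interval 1.27 to 2.09) at ratios under 0.2, 4.53% (104 of 2296, 3.75 to 5.46) from 0.2 to 0.4, 10.5% (73 of 694, 8.45 to 13.0) from 0.4 to 0.6 and 16.6% (41 of 247, 12.5 to 21.7) above. Each class had a higher share than the class below it, and only the intervals of the upper classes overlapped. Each gene was classed by the highest ratio among its promoters. Genes newly marked only at regions that the rule left out counted as not newly marked here, and the part of this in the shares was not tested. In the sequences above, Trim12c has a ratio of 0.167, Prlr 0.442, Krt7 0.641 and Mael 0.780.

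The members themselves also had intermediate CpG density, here between LIF-only and shared regions. In the central 300 bp of each region, the ratio of observed to expected CG had a median of 0.431 in start-site members, 0.299 in LIF-only and 0.620 in shared start-site regions. For distal regions the medians were 0.419, 0.289 and 0.518. GC content had medians of 57.3% in start-site members and 55.3% in distal members, against 51.7% and 49.0% in LIF-only regions. CpG-rich windows made up 16.6% of start-site members (interval 13.6 to 20.2), which was 12.0 percentage points above LIF-only regions (8.20 to 15.9) while the difference from shared regions was -31.6 points (-34.8 to -27.9). They made up 13.1% of distal members, 9.82 points above LIF-only regions (8.61 to 11.1) while the difference from shared regions was -13.2 points (-14.6 to -11.7). Regions with a score under 100 were also taken alone, by the Myc-ESC score for members and shared regions and by the LIF-ESC score for LIF-only regions. Shared regions in this class could have a higher LIF-ESC score. CpG-rich windows were then found in 14.2% of start-site members, 5.32% of LIF-only regions and 18.2% of shared regions. Members thus stood above LIF-only regions at low scores too, and the distance to shared regions was smaller there. Shared regions also differed by CpG. Scores were compared only where a shared region had a single peak in each list and neither score was near the top of the scale. This left 12150 regions with a ratio of at least 0.4 and 4297 under 0.4. The Myc-ESC score was the higher in 54.6% of those with a ratio of at least 0.4 (interval 53.7 to 55.5). It was the higher in 36.2% of those under 0.4 (34.8 to 37.7). A difference between the cultures by CpG density was therefore seen in shared regions too. These take in the repeat groups described below, where the Myc-ESC score was the higher in 84.9% of shared regions. In every other kind of shared region described there it was the higher in 45.5% or less. Shared regions of the 4 groups had median ratios of 0.564, 0.597, 0.617 and 0.347. The part of the repeat groups in the difference by CpG was not tested.

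**Figure D3:**
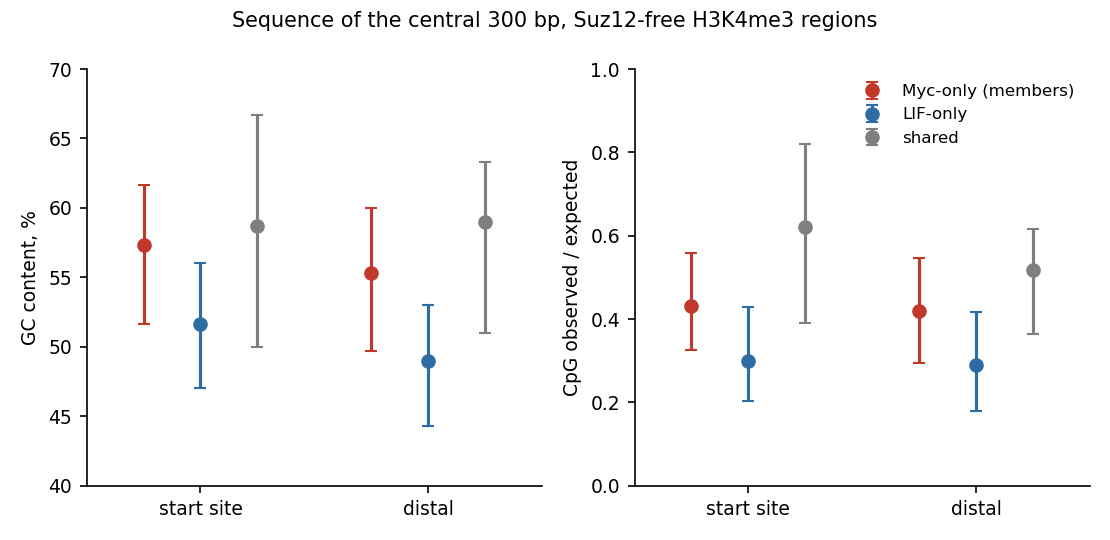
GC content in % (left) and ratio of observed to expected CG (right) in the central 300 bp of regions without Suz12, at start sites and distal. Points are medians and bars run from the lower to the upper quartile over regions. Myc-only regions (red) have a median ratio of 0.431 at start sites and 0.419 at distal places, between LIF-only (blue) and shared regions (grey).

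Members were seldom at start sites. The share at a start site was 12.5% of members (interval 11.5 to 13.6), 8.46% of LIF-only regions and 49.8% of shared regions. Members exceeded LIF-only regions by 4.08 percentage points (2.83 to 5.35) and differed from shared regions by -37.3 points (-38.5 to -36.0). Myc-only regions were 4.18% of all start-site regions without Suz12 and 17.2% of all distal ones.

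The distal member with the highest score, 3100, spanned 8040 bp (chr8:78012145-78020184) in intergenic sequence, 193157 bp from the nearest start site, that of Ttc29, and 42819 bp from the nearest LIF-ESC peak. Its central 300 bp had 33.3% GC and 1 CG. This member and that at Sall2 were the only members at 3100, and they were similar in length. The next lay 10867 bp upstream of Car4, a carbonic anhydrase gene, with a score of 1008 (chr11:84942637-84946886), and 81.7% of its central 300 bp was repeat sequence. Outside these, distal members reached 676.4 at most.

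The other high-scoring distal members lay near or inside genes of varied roles. The member near Ermp1, an endoplasmic reticulum peptidase gene, scored 676.4, and the member near Gm30214, 522359 bp from that start site, 533.9. A member 3747 bp upstream of Skil, which encodes the Smad repressor SnoN, scored 480.5, but lay only 1343 bp from a LIF-ESC peak and 2363 bp from Suz12. Members in introns of Arhgap12 (486.2), Map4k5 (435.0), B230217O12Rik (400.9) and Gm41609 (392.3) and a member near Mir6951 (451.9) complete the 10. A member 30241 bp upstream of Fzd7, the Wnt receptor gene, scored 363.4 and is named after its value was seen. All of these but the member near Skil and that in Arhgap12, which was 2000 bp from a LIF-ESC peak, lay 3434 bp or farther from one.

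Distal members were placed differently in genes from LIF-only regions. Their centre lay in an exon in 11.4%, in an intron in 30.6% and between genes in 58.1%. In LIF-only regions the shares were 5.34%, 59.5% and 35.2%, and in shared distal regions 6.99%, 29.9% and 63.2%. The exon share of distal members exceeded that of LIF-only regions by 6.04 percentage points (4.84 to 7.29) and that of shared regions by 4.39 points (3.24 to 5.60). Start-site members also had more centres in exons, 42.8% against 23.4% and 30.7%. Among distal windows with under 50% repeat bases the exon share was 17.99% in members, 6.23% in LIF-only and 14.4% in shared regions.

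Repeat sequence divided the distal members. At least 50% of the central 300 bp was repeat-masked in 1267 distal members (37.7%, interval 36.1 to 39.4), in 15.3% of LIF-only and in 51.7% of shared distal regions, but in only 17 start-site members. After this was seen, the distal repeat windows of all 3 classes were grouped by the runs of 12 bases they shared most, without regard to class. The 4 largest groups held 904 distal members (26.9%, 25.5 to 28.5), 116 LIF-only regions (2.08%) and 4283 shared regions (40.5%). Members exceeded LIF-only regions by 24.8 percentage points (23.3 to 26.4) and differed from shared regions by -13.5 points (-15.3 to -11.8). The run below is a window of the first group, with the shared 12 bases in capitals (chr3:39243536-39243835, plus strand, in a member with a score of 59.8). Of its 242 runs of 12 bases, 92 (38.0%) were found in at least 50% of 357 members of the group.
Repeat window: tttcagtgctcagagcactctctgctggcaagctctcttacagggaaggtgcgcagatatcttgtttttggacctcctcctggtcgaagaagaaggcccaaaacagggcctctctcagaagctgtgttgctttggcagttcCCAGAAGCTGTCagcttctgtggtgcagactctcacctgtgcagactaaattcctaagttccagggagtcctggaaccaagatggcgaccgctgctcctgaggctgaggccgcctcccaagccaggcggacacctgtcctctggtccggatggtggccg

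The first group, defined by CCAGAAGCTGTC, had 369 distal members, 46 LIF-only and 2118 shared regions. The second, AGAGGTCTTAGG, had 366 members against 61 LIF-only regions, the next, CCGGCCACCTTC, 77 against 5, and the last, CTCTGCTGGCAA, 92 against 4. Members outnumbered LIF-only regions in all 4 groups, although LIF-only regions were more numerous overall. The printed window holds the runs of the first and the last group, so these need not be separate repeats. Scores in the groups were low, with medians of 76.6, 71.3, 84.0 and 82.5 in members and a maximum of 294.8, and no repeat family is named since no repeat annotation was used. The authors kept only reads with a unique best location, and reads from near-identical copies may be lost or misplaced. The part of this in the result was not tested.

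Among regions called in a single culture, the Myc-only share was 88.6% in the repeat groups (904 against 116), 33.1% in other repeat windows, 30.7% in distal windows with few repeats and 48.3% at start sites. These counts follow from the rule. The score of shared regions in each culture was compared as well. The rule did not choose regions by this comparison, but the scores come from the same H3K4me3 lists, so they are not independent of the calls. In shared regions of the repeat groups the Myc-ESC score was the higher in 3637 of 4282 (84.9%, interval 83.8 to 86.0), with median scores of 150.6 for LIF-ESCs against 228.7 for Myc-ESCs. It was the higher in 45.5% of shared regions in other repeat windows, 40.1% in distal windows with few repeats and 33.8% at start sites. The scores also depend on the depth of each list, whose part in these shares was not tested.

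**Figure D4:**
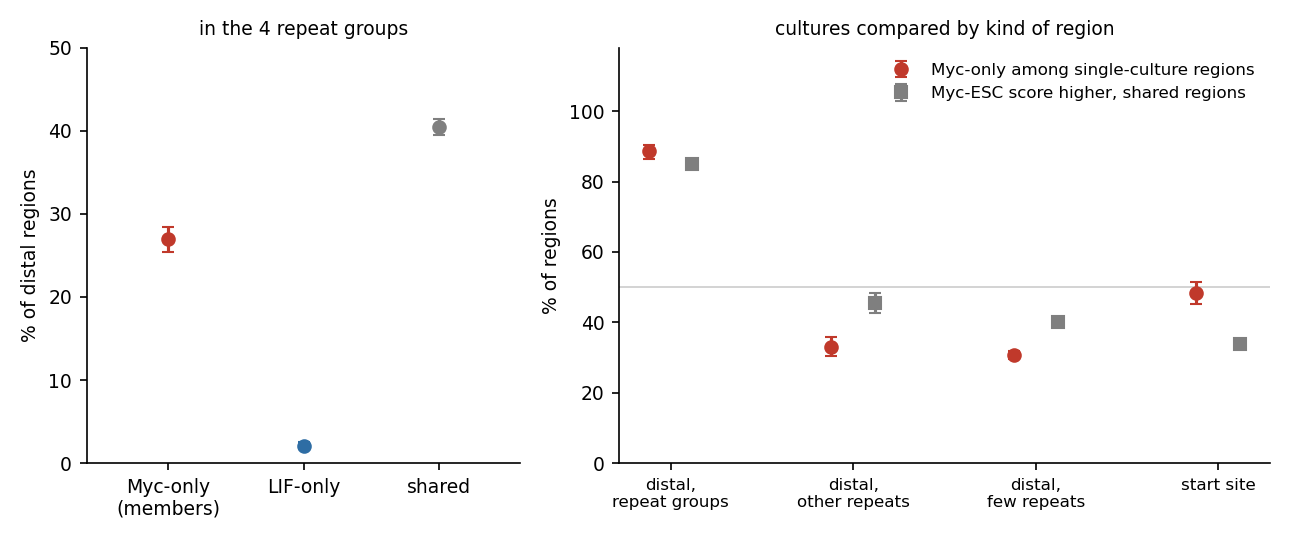
Left, share of distal regions without Suz12 in the 4 repeat groups, in %, for Myc-only (26.9%), LIF-only (2.08%) and shared regions (40.5%). Right, share of Myc-only regions among those called in a single culture (circles) and share of shared regions with the higher score in Myc-ESCs (squares), in %, by kind of region, with a grey line at 50%. Bars are 95% Wilson intervals, and the repeat groups stand highest on both measures, at 88.6% and 84.9%.

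Motifs were searched on both strands of the central 300 bp. CACGTG is the E-box of Myc and Max, TTCNNNGAA the element of Stat factors, GGGCGG the GC box of Sp factors and ATGCAAAT the octamer of Oct factors. The first 2 read the same on both strands, and none of the 4 contains another. A match is a description of letters and not a bound site. CACGTG was found in 5.82% of start-site members and 6.91% of distal members, and in 5.80% of all 31019 regions. In distal windows with at least 50% repeat bases it was found in 9.39% of members, 6.83% of LIF-only and 4.52% of shared regions, and in distal windows with fewer repeats in 5.41%, 4.88% and 6.27%. Over all members the share was 6.77%, which exceeded LIF-only regions by 1.59 percentage points (0.639 to 2.59) and shared regions by 0.979 points (0.160 to 1.87), but the latter turned to -1.92 points in windows of 1000 bp. Of the repeat members with this motif, 83 belonged to the second repeat group. In the windows with fewer repeats the intervals of the difference from LIF-only (-0.574 to 1.73 percentage points) and from shared regions (-2.00 to 0.361) both held 0.

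The Stat element TTCNNNGAA was found in 13.3% of distal members (interval 12.2 to 14.5), 9.29% of LIF-only and 6.77% of shared distal regions, and in 7.87% of all regions. Distal members exceeded LIF-only regions by 4.00 percentage points (2.64 to 5.39) and shared regions by 6.51 points (5.30 to 7.79). The difference was in the repeat windows. There the share was 22.1%, 9.19% and 5.72%, and TTCCCAGAA alone was in 243 of the 1267 repeat members (19.2%) and in 257 of 5469 shared ones (4.70%). In windows with fewer repeats it was 7.94% of members, 9.31% of LIF-only and 7.90% of shared regions. Of the 369 members of the first repeat group, 204 held TTCCCAGAA, which overlaps the capitals of the printed window, and in that group's 2118 shared regions it was in 230. Start-site members had the element in 4.99%, below the 9.53% of LIF-only start-site regions.

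The GC box GGGCGG was found in 28.3% of start-site members, 16.3% of LIF-only and 41.1% of shared start-site regions, and in 20.2%, 10.5% and 30.6% of distal regions in that order, against 29.1% of all regions. In promoters of newly marked genes it was in 29.4%, against 35.7% of all RefSeq promoters of the same length. Promoters of genes unmarked in both cultures held it in 8.44%, and those of LIF-marked genes in 62.0%. The octamer was in 1.25% of start-site and 1.28% of distal members and in 1.13% of all regions. CACGTG was in 8.53% of newly marked promoters (interval 6.00 to 12.0), among them Mael above, whose promoter holds CACGTG and GGGCGG. It was in 7.15% of all promoters, in 3.84% of those unmarked in both cultures (3.41 to 4.31) and in 9.76% of LIF-marked ones.

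Members were spread over all chromosomes, at 9.58% (chromosome 17) to 16.0% (chromosome Y) of the regions without Suz12. The sex chromosomes stood apart through their few LIF-only regions. On the X chromosome there were 90 against 155 members, or 63.3% Myc-only among single-culture regions (interval 57.1 to 69.1), and on the Y chromosome 12 against 26, while the autosomes together had 38.0%. In the shared regions whose scores were compared, the Myc-ESC score was the higher in 61.2% of 907 on the X chromosome (58.0 to 64.3). On the autosomes it was the higher in 48.9% of 15416. Of the members on the X chromosome, 45, 33, 4 and 11 were in the 4 repeat groups in turn, and of those on the Y chromosome 2, 15, 4 and 1, while the groups held 904 of all 3838 members. The part of repeats in this result was not tested.

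Most members stood alone. No other member lay within 50 kb of 2958 members, and 880 members formed 396 clusters, of which 66 held 3 or more. The largest clusters held 6 members, at Fam189b, Hcn3, Pklr and Trim46 on chromosome 3, at Slc4a8 on chromosome 15, and at Kctd10, Myo1h and Ube3b on chromosome 5, all named after the counts were seen. Of single genes, Fto held 5 members and 1 LIF-only region over 354.9 kb, and Bsn held 4 and none over 94.4 kb. At 8 genes, among them Inhbc and Rxrg, start sites had both a member and a LIF-only region.

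The rule did not use H3K27me3 peaks, but it left out regions near Suz12, a subunit of the complex that places this mark. H3K27me3 was rare at members, as it was over all regions without Suz12. A Myc-ESC H3K27me3 peak lay within 1000 bp of 21 start-site members (4.37%, interval 2.87 to 6.58) and 36 distal members (1.07%), against 1.33% of all 31019 regions without Suz12, 2.17% of those at start sites and 0.841% of the distal ones. A LIF-ESC peak lay near 3 start-site and 7 distal members, against 0.458% of all regions. Only 2 members had both, 55 had the Myc-ESC peak alone and 8 the LIF-ESC peak alone. The H3K27me3 lists are unequal, with 16717 peaks for Myc-ESCs but 3120 for LIF-ESCs, so the counts of the cultures cannot be compared directly. Within the Myc-ESC list, start-site members exceeded shared start-site regions by 2.30 percentage points (0.782 to 4.53) and LIF-only ones by 2.03 points (-0.232 to 4.46). Distal members exceeded LIF-only regions by 0.857 points (0.519 to 1.28) and differed from shared regions by -0.0235 points (-0.391 to 0.424).

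These H3K27me3 peaks were weak, with scores from 50.0 to 113.8 and a median of 58.7. In 1 alternative the lists of each antibody were limited to equal length, and in another all lists to scores of at least 100. Members were called anew in both. The difference of start-site members from shared regions and that of distal members from LIF-only regions then had intervals that held 0. Only 0.0217% and 0.167% of members kept a Myc-ESC H3K27me3 peak there, so these settings could hardly show a difference. The strongest lay near a distal member by Gm30214 (113.8, chr14:53231285-53232665), in an intron of Trim67 (98.5), near Gpatch2l (96.2), at Lrp3 (91.2) and near Fgfr3 (75.9). Of these only Lrp3, a gene of the LDL receptor-related family, was newly marked, with an H3K4me3 score of 148.9. Its window had 83.7% GC and a CG ratio of 1.05, far above the median of start-site members. Among the genes named above, Fam135b (74.0), Mov10l1 (72.6), Krt7 (68.0), Tdrd1 (61.0) and Atp2c2 (55.5) also had a Myc-ESC H3K27me3 peak within 1000 bp, and of these only the member at Tdrd1 had a LIF-ESC one as well.

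**Figure D5:**
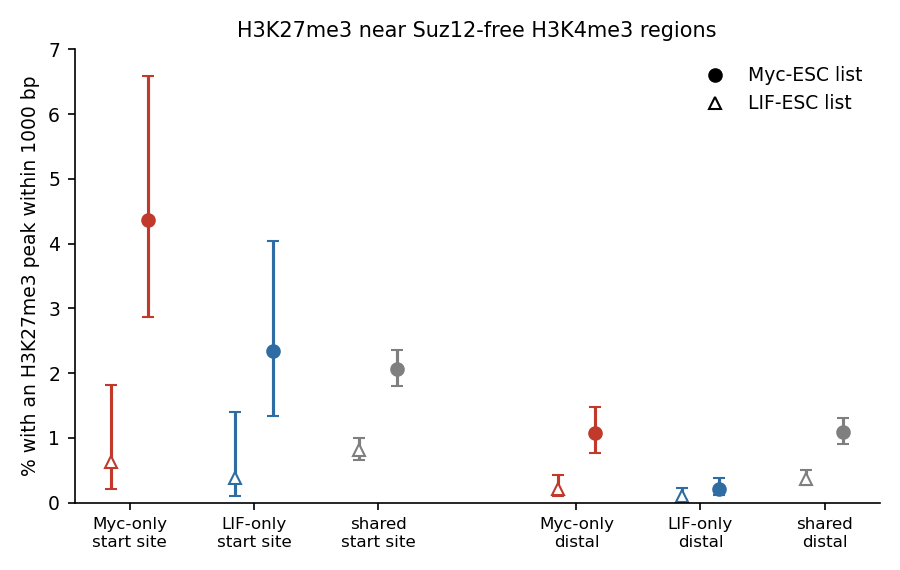
Share of regions without Suz12 that had an H3K27me3 peak within 1000 bp, in %, from the Myc-ESC list of 16717 peaks (filled circles) and the LIF-ESC list of 3120 peaks (open triangles), for Myc-only, LIF-only and shared regions at start sites and distal. Bars are 95% Wilson intervals. Start-site members reach 4.37% with the Myc-ESC list, and all distal classes stay at 1.10% or below.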

How the data were processed

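R1 MycER ESCs were analysed by ChIP-seq in the labels' groups, LIF-ESC and Myc-ESC. According to the submitters' notes and methods, the authors aligned reads to GRCm38 with Bowtie2 2.2.3, kept unique best locations and called peaks over background with MACS 1.4.2 at default settings. The deposited values are peak positions and a score per peak. How the 2 libraries behind each list were combined is not given in the sources used here, and depth is unknown.

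Intervals were read with Python 3.11.15, pandas 2.3.3 and NumPy 2.4.6, sequence with pysam 0.24.0 and samtools 1.23.1, and figures drawn with matplotlib 3.10.9. Peaks were merged at 1 bp of overlap. Start sites were those of 45756 curated RefSeq transcripts (32746 start sites). Repeat bases are those in lower case in the GRCm38 sequence. Interval and share code was tested on simulated data.

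The members and the lists were chosen with earlier results of these data known. The rule for named genes took the 15 newly marked genes and the 5 other genes with the highest start-site score, the 10 highest distal members, up to 4 genes per list and the 5 members with the highest H3K27me3 score. Of these, 1 gene is not reported here. The repeat groups were chosen after seeing the data. Alternatives were a score of at least 100, equal list lengths, other distances and windows, and all annotated transcripts. The gene lists called the study's were taken from its supplementary gene sets and could be read whole. Gene expression was not analysed here.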

Additional observations from a re-analysis of the deposited data

How the results depend on the processing

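No paired analysis was possible because there was 1 peak list per culture and antibody, and for the same reason no replicate could be left out. Of 126 alternative values over 16 results, 93 changed little, 10 differences lost an interval that excluded 0, 22 counts or shares moved and 1 difference reversed. A count changed little within 1.5 times its value, a share within its 95% interval, the median GC content within 1 SD over members, and a difference when its sign and its call against 0 stayed. The share of members at start sites (12.5%) was 16.7% at a score of at least 100 in every list, 10.7% with no LIF-ESC peak within 5000 bp, 9.72% and 18.1% with windows of 1000 and 5000 bp, and 20.1% with all annotated transcripts, which also gave 773 start-site members and 599 newly marked genes. The Myc-only share of regions without Suz12 (12.4%) was 11.9% at a score of at least 100, 15.3% with equal list lengths, and 12.0% and 10.5% with no LIF-ESC peak within 1000 and 5000 bp. The share of members with Myc-ESC H3K27me3 (1.49%) was 0.167% at a score of at least 100, 0.0217% with equal list lengths, 0.521% on overlap alone and 3.96% within 5000 bp. For start-site members minus shared regions (2.30 points) it was 0.231, -0.180 and 0.662 points in the first 3 of these and 0.974 with all annotated transcripts, all with intervals that held 0. For distal members minus LIF-only regions (0.857 points) it was -0.00285 at a score of at least 100 and 0.00238 with equal lists. The shorter lists follow from those settings, and no other cause was tested. The CACGTG share of members (6.77%) was 18.2% in windows of 1000 bp, 5.61% at a score of at least 100 and 5.44% in windows with fewer repeats. Its difference from shared regions (0.979 points) reversed to -1.92 in windows of 1000 bp (interval -3.23 to -0.562) and was 0.00478 and -0.859 in the other 2, and that from LIF-only regions (1.59 points) was 0.6004 and 0.516 in these. The cause was not tested. The share of distal members in the repeat groups (26.9%) was 23.0% with runs of 16 bases, 21.9% with 2 groups and 21.7% at a score of at least 100, where the Myc-only share among single-culture regions in the groups (88.6%) was 96.6%. The H3K27me3 differences, the settings for repeats and the windows with fewer repeats were added after seeing the data. Unknown depth limits every count of absent peaks.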
